A study of Mus musculus with 8 samples.

Results

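The 38 *Hox* genes examined (the listed genes) lie in 4 clusters, 10 genes each in HoxA (chromosome 6) and HoxB (chromosome 11) and 9 each in HoxC (chromosome 15) and HoxD (chromosome 2). Accessible regions of these genes were taken from 2 deposited ATAC-seq peak tables, 1 for MPP3 and 1 for MPP4 cells. A peak was a member when the closest gene to its centre was a listed *Hox* gene, with up to 20 kb allowed upstream and 10 kb downstream of the gene. The rule took 37 of the 87642 regions in the MPP3 table and 38 of the 86952 in the MPP4 table. HoxA held 11 and 13 of them in MPP3 and MPP4 cells, HoxB 11 and 13, HoxC 11 and 9, and HoxD 4 and 3.

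The study examined mouse multipotent progenitors that lacked EBF1, a transcription factor of early B-lymphoid development. ATAC-seq, in which a transposase cuts open chromatin, was run on 5000 sorted bone marrow cells per library from C57BL/6 mice, with 2 libraries for each genotype and cell type and 8 in all. MPP3 cells were LSK CD150- CD48+ and MPP4 cells LSK CD150- CD48+ Flt3+, where LSK marks lineage-negative cells with Sca-1 and c-Kit on the surface. Control mice carried the label Ebf1fl/fl Tie2Cre +/+ and knockout mice Ebf1fl/fl Tie2Cre +/cre, while the text for the whole series calls the controls Ebf1-wt Tie2Cre. The Tie2 promoter drives Cre in endothelium and in blood cells, so the deletion was not limited to MPPs. The MPP3 control mice were 8 weeks old and the MPP3 knockout mice 8 to 9 weeks, and the MPP4 control and knockout mice were 9 and 8 weeks old. The mice were female except for 1 MPP4 control.

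For each peak the level used here was the authors' mean log2 CPM (CPM, counts scaled to the reads that a library has in peaks), computed over the 4 libraries of a cell type with both genotypes pooled. A level therefore has no SD, no test was possible between cell types, and no genotype comparison was made. The 2 tables were normalized separately. To compare peaks of unequal size, the level was also expressed per kb of peak. As a check of the labels, the strongest peak within 1 kb of a start of *Flt3*, the receptor that marks MPP4 cells, had a log2 CPM of 5.92 in MPP3 and 7.01 in MPP4 cells, and that of *Kit* 5.54 and 5.63. Of 4 T cell genes 1 in MPP3 and 2 in MPP4 cells had a start peak, and *Cd8a* had no peak in either table. All 4 genes of endothelium and stroma had a start peak in both tables, with 96.3 and 156 CPM summed over their peaks, and 3 of 5 granulocyte and monocyte genes had one in each table, with 192 and 139 CPM. All 3 megakaryocyte genes had one in both tables (171 and 132 CPM), and 3 of 4 erythroid genes in each (94.7 and 68.9 CPM). Of 4 B cell genes 3 and 2 had one (78.5 and 52.1 CPM), and of 3 stem cell genes 3 and 2 (240 and 218 CPM). Whether other cells in the sort contributed to the *Hox* peaks was not tested. The start peak of *Mpo*, a granulocyte enzyme gene, was at 5.98 in MPP3 and 3.95 in MPP4 cells on the same scale, that of *Elane* at 3.01 and 1.80, and that of *Itgam*, an integrin gene of the same list, at 2.85 and 3.16.

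*Hox* genes encode homeodomain transcription factors that set position along the body axis in the embryo, and genes at the same rank in the 4 clusters are paralogs. In blood, genes of the middle and 5′ part of HoxA and several of HoxB are active in stem and progenitor cells and are shut down as cells mature, and *Hoxa9* with its cofactor *Meis1* drives leukemia when kept on. Polycomb complexes hold silent *Hox* genes in closed chromatin, and the MLL complex, with KMT2A as its enzyme, keeps active ones open.

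A few peaks are shown by sequence because the comparisons rest on them, namely strong HoxA peaks, peaks with a CTCF core and the peak with the largest difference between the cell types. All are from the plus strand of GRCm38 (mm10), written 5′ to 3′, and each is a stretch of at most 200 bases of an MPP3 peak. Capitals mark matches to the motif named with each line, on either strand. The *Hoxa5* stretch was chr6:52204389-52204588 and carried 1 match to TGATNNAT, a HOX-PBX composite. The *Hoxa7* upstream stretch, named after the position of the peak centre, was chr6:52221817-52222016. It carried 3 matches to the EBF1 core TCCCNNGGG at 2 separate places, since the latter 2 matches overlap. The *Hoxa7* intron stretch was chr6:52217513-52217712 and the *Hoxa3* intron stretch chr6:52211683-52211882, each with 1 CTCF core (CCAGNNGGC or CTAGNNGGC). The *Hoxb9* downstream stretch was chr11:96278855-96279054 with 1 CTCF core.
Hoxa5 start, HOX-PBX: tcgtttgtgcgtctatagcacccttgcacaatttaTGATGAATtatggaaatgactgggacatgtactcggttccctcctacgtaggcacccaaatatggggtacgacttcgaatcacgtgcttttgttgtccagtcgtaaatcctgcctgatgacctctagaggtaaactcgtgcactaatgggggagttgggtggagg
Hoxa7 upstream, EBF1: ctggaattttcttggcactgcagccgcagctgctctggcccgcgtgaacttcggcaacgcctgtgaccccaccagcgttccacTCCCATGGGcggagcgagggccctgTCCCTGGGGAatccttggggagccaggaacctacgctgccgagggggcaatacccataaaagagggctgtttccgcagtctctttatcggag
Hoxa7 intron, CTCF: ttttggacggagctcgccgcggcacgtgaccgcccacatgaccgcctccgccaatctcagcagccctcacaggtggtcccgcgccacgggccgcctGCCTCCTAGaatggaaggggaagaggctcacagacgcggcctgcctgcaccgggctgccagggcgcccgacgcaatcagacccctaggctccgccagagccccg
Hoxa3 intron, CTCF: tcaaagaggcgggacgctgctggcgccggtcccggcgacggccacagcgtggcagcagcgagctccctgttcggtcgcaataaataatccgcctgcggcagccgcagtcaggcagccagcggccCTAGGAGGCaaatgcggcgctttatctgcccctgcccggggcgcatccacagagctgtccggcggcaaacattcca
Hoxb9 downstream, CTCF: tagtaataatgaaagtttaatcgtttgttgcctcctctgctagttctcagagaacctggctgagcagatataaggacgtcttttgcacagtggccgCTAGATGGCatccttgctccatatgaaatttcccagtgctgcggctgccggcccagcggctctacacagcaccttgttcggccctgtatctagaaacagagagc

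HoxA was the most accessible of the 4 clusters in both cell types. The median level of its peaks was 5.18 log2 CPM per kb in MPP3 and 4.97 in MPP4 cells, at the 79.7th and 72.7th percentile of all peaks, whose medians were 4.11 and 4.15. Of the HoxA peaks, 10 of 11 in MPP3 and 10 of 13 in MPP4 cells lay above the median of all peaks. The other clusters lay below it. On the same scale HoxB had medians of 3.83 and 3.73, HoxC 3.75 and 3.57, and HoxD 3.58 and 3.57, and of their peaks only 2, 2 and 1 in MPP3 cells and 2, 0 and 0 in MPP4 cells lay above the median of all peaks. Single peaks of the clusters overlapped, since HoxA peaks ran from 3.78 to 6.04 and HoxB peaks from 3.21 to 4.92 in MPP3 cells. Over all *Hox* peaks the median was 3.99 and 3.78.

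**Figure D1:**
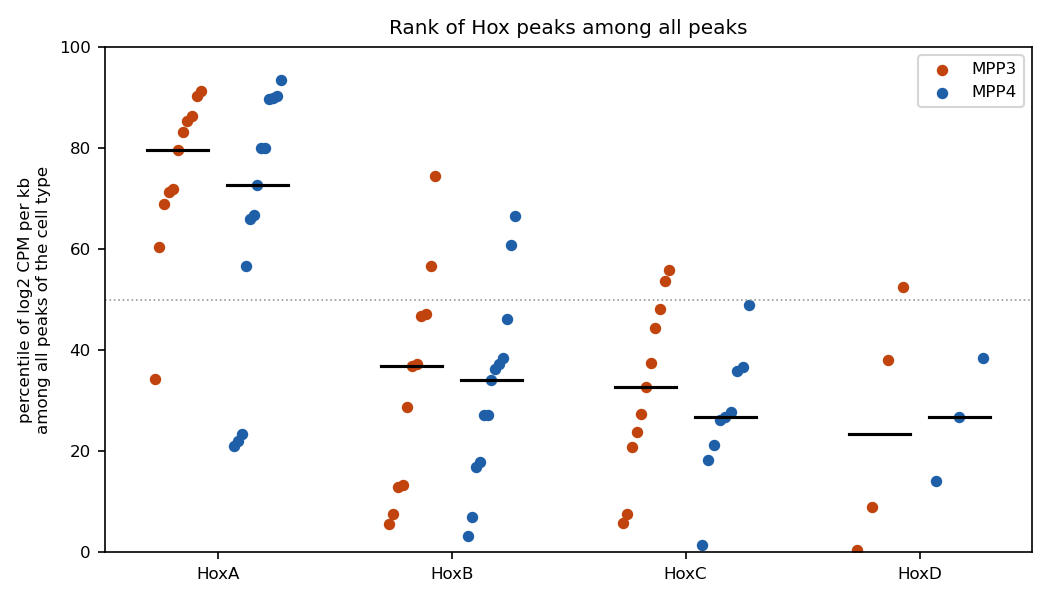
Percentile of log2 CPM per kb of each *Hox* peak among all peaks of its cell type (y axis, 0 to 100) by cluster, with MPP3 in orange, MPP4 in blue and black bars for medians; each point is 1 peak of the pooled tables. The HoxA medians sit at 79.7 (MPP3) and 72.7 (MPP4), and the medians of the other clusters sit below 50.

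HoxA also led in the signal summed over peaks. Its peaks added up to 136 CPM in MPP3 and 155 CPM in MPP4 cells, HoxB peaks to 39.7 and 47.3 CPM, HoxC peaks to 31.0 and 21.5 CPM and HoxD peaks to 10.3 and 8.48 CPM. Such sums move with how much was called as peak. HoxA peaks covered 3.44 and 3.93 kb with a mean of 12.3 and 12.0 CPM per peak, close to the 11.8 and 11.9 CPM of all peaks. HoxB peaks covered 2.54 and 3.33 kb with a mean of 3.61 and 3.64 CPM. HoxC peaks averaged 2.82 and 2.39 CPM, and HoxD peaks 2.57 and 2.83 CPM. Between the outermost listed genes, HoxA had 1.42 peaks per 10 kb in MPP3 and 1.63 in MPP4 cells, HoxB 0.920 and 1.03, HoxC 0.950 and 0.691, and HoxD 0.620 and 0.723, counting peaks of any gene. Summed over those peaks of any gene, the signal was 163 and 189 CPM in HoxA, 72.6 and 85.2 CPM in HoxB, 31.0 and 19.7 CPM in HoxC, and 21.1 and 27.5 CPM in HoxD, so that HoxD passed HoxC in MPP4 cells when peaks of other genes were included.

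Within HoxA the signal was concentrated from the distal *Hoxa3* start to *Hoxa10*, between 49.4 and 78.1 kb from the *Hoxa2* end of the cluster. *Hoxa7* had the strongest *Hox* peak of both tables. The centre of this peak lay 96 bp upstream of a *Hoxa7* transcript start in MPP3 cells, where the peak was 549 bp long and covered that start. The peak had a log2 CPM of 5.17 in MPP3 and 5.12 in MPP4 cells. A further *Hoxa7* peak, in an intron and at the start of another *Hoxa7* transcript, had a log2 CPM of 4.03 and 4.46. Per kb these 2 peaks stood at 6.04 and 5.94 in MPP3 and at 6.01 and 6.32 in MPP4 cells, so that their order switched with the cell type.

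*Hoxa9*, which sustains progenitor growth, had a peak centred 9 bp from a transcript start in MPP3 cells, with 5.60 log2 CPM per kb there and 5.97 in MPP4 cells. An intronic *Hoxa9* peak, centred 102 bp from the start of another *Hoxa9* transcript, had 5.18 and 5.33. *Hoxa10*, the neighbor of *Hoxa9* with a related role in blood progenitors, had a coding exon peak at 4.78 and 4.97 on the same scale. The centre of that peak lay 723 and 752 bp from a start. A *Hoxa10* peak closer to a start had 4.69 and 4.72. The *Hoxa3* peaks at 5.39 and 5.54 in MPP3 cells, and 5.33 and 5.96 in MPP4 cells, belong to long *Hoxa3* transcripts that begin between *Hoxa6* and *Hoxa7* and span *Hoxa4* and *Hoxa5*. In MPP3 cells their centres lay 1346 and 284 bp from those starts. The strongest peak near that distal start, at 5.70 and 6.04 log2 CPM per kb, was closest to the non-coding gene *Gm28308* and was therefore not a member.

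The ends of HoxA were weaker. *Hoxa4* had 4.41 and 4.36 log2 CPM per kb at its start, and *Hoxa13*, which patterns limbs and the hindgut, 3.78 and 3.50. *Hoxa2* and *Hoxa6* had no peak assigned in either table. With the listed *Hox* genes alone competing for peaks, *Hoxa2* had 2 in MPP3 and 3 in MPP4 cells. *Hoxa11* had no peak of its own by the closest-gene rule, but a peak closest to *Gm27492* lay within 1 kb of a *Hoxa11* start at 4.73 and 4.75.

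**Figure D2:**
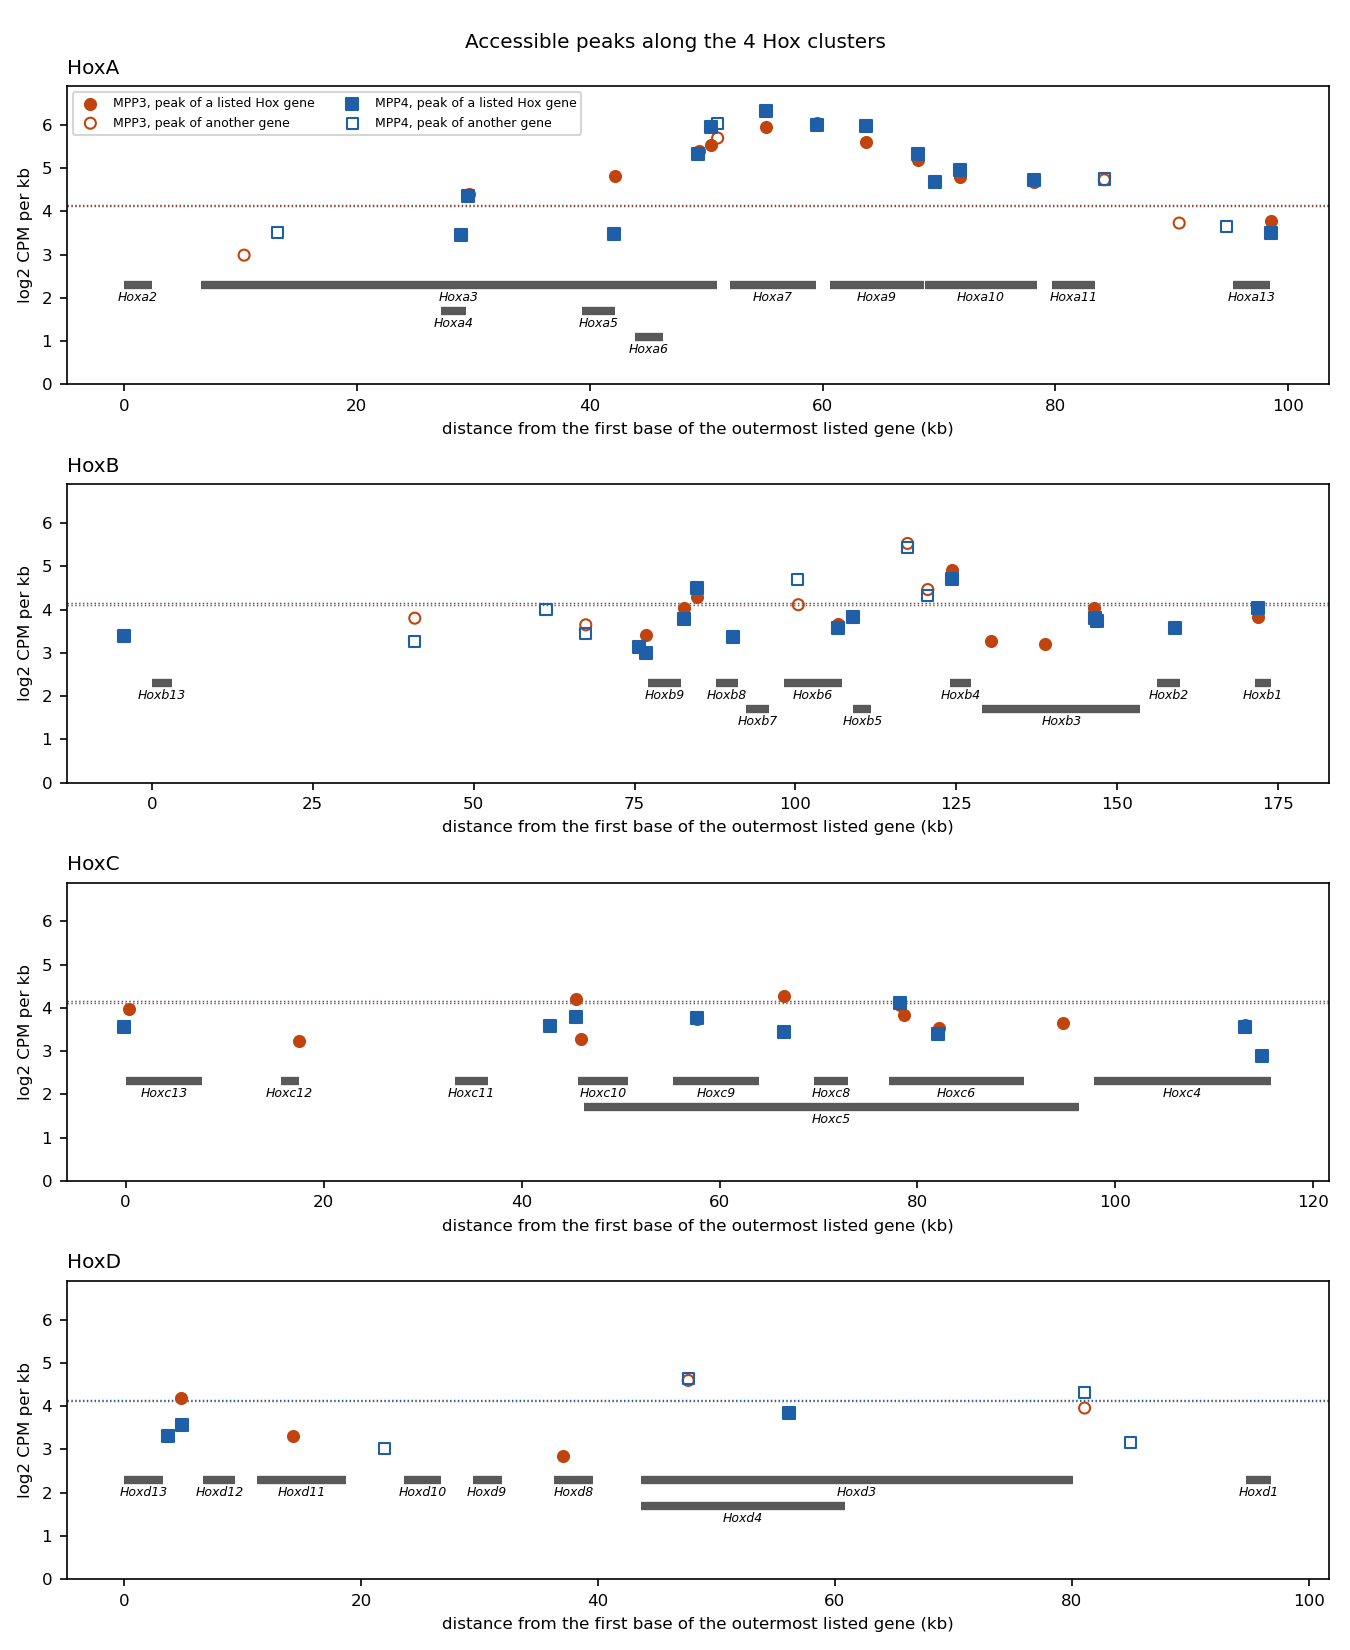
Peaks along the 4 clusters, with distance in kb from the first base of the outermost listed gene on the x axis and log2 CPM per kb of peak on the y axis; filled symbols are peaks of listed *Hox* genes, open symbols peaks of other genes, grey bars gene bodies and dotted lines the medians of all peaks (4.11 and 4.15). The run of high peaks in HoxA lies between 49.4 and 78.1 kb, while peaks of listed genes in HoxC and HoxD stay near or below the dotted lines.

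In HoxB the leading peak of a listed gene was that of *Hoxb4*, whose forced expression expands hematopoietic stem cells. It lay in an exon outside the coding sequence, 329 bp from the transcript start in MPP3 cells, with a log2 CPM of 3.31 in MPP3 and 2.92 in MPP4 cells, or 4.92 and 4.71 per kb. A peak downstream of *Hoxb9* that carried a CTCF core came next with 4.29 and 4.50 per kb. *Hoxb3* had a start peak at 4.05 and 3.81 and *Hoxb1* at 3.83 and 4.04. The start peaks of *Hoxb5* stood at 3.84 in both tables and those of *Hoxb9* lay at the 13.4th and 3.19th percentile of all peaks. *Hoxb6* and *Hoxb8* had a peak each, but not within 1 kb of a start. *Hoxb7* had none, and *Hoxb2* and *Hoxb13* had 1 peak each in MPP4 cells and none in MPP3 cells.

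The strongest peak inside HoxB belonged to no listed gene. It lay about midway between *Hoxb5* and *Hoxb4*, closest to the antisense gene *Hoxb5os*, with a log2 CPM of 4.01 in MPP3 and 4.26 in MPP4 cells, or 5.53 and 5.43 per kb. A peak upstream of *Mir10a*, a microRNA gene in the same interval, had 4.46 and 4.33 per kb. In HoxD too the strongest peak was closest to a non-coding gene, *Hoxd3os1*, at 4.59 and 4.64 per kb. A peak of *Haglr*, another non-coding gene, stood at 3.96 and 4.32 per kb.

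HoxC and HoxD peaks of listed genes were low. In HoxC the highest levels per kb were 4.27 at a peak downstream of *Hoxc9*, 4.21 at the *Hoxc10* start and 4.07 in a *Hoxc6* intron in MPP3 cells, against 3.45, 3.79 and 4.12 at the overlapping MPP4 peaks. *Hoxc4*, which is known to act in B cells, had a start peak at 3.59 and 3.57, and *Hoxc13*, a gene of hair and nail, at 3.98 and 3.55. The *Hoxc13* peak was in a coding exon in MPP3 cells and upstream in MPP4 cells, and these peaks did not overlap. *Hoxc8* and *Hoxc11* had no peak. *Hoxc5* and *Hoxc12* had 1 peak each in MPP3 cells and none in MPP4 cells. The *Hoxc10* start peak also lay within 1 kb of a start of a long *Hoxc5* transcript, so the 2 genes cannot be told apart there.

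In HoxD a peak downstream of *Hoxd13*, a limb patterning gene, had 4.18 log2 CPM per kb in MPP3 and 3.57 in MPP4 cells, and a *Hoxd4* intron peak 3.85 and 3.84. *Hoxd8* and *Hoxd11* had start peaks in MPP3 cells only, at 2.86 and 3.31, and the *Hoxd8* peak was at the 0.499th percentile of all peaks. *Hoxd1*, *Hoxd3*, *Hoxd9*, *Hoxd10* and *Hoxd12* had no peak assigned in either table. The *Hoxd3os1* peak, however, lies within *Hoxd3*. With the listed *Hox* genes alone competing for peaks, *Hoxd3* had 1 in MPP3 and 2 in MPP4 cells, and *Hoxd10* had 1 in MPP4 cells. In all, 25 of 38 genes had a peak assigned in MPP3 and 23 of 38 in MPP4 cells, and 13 and 15 had none. The share of all genes with an assigned peak was not computed, so these counts cannot be called few or many. They also depend on the non-coding genes that compete for peaks within the clusters.

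A smaller share of *Hox* genes than of all protein-coding genes had an accessible start. A peak centre lay within 1 kb of a transcript start for 20 of 38 *Hox* genes in MPP3 cells (52.6%, 95% Wilson interval 37.3 to 67.5%, counting error only) and for 17 of 38 in MPP4 cells (44.7%, 30.1 to 60.3%). Of 20780 autosomal protein-coding genes, 67.5% and 67.3% had such a peak. The same 8 HoxA genes counted in both tables, all of the listed ones but *Hoxa2* and *Hoxa6*. In HoxB these were *Hoxb1*, *Hoxb3*, *Hoxb4*, *Hoxb5* and *Hoxb9* in both tables, and no HoxD gene counted in MPP4 cells. Where the peak had to overlap the start itself, 7 and 8 *Hox* genes remained (18.4% and 21.1%), next to 59.9% and 59.2% of the protein-coding genes.

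**Figure D3:**
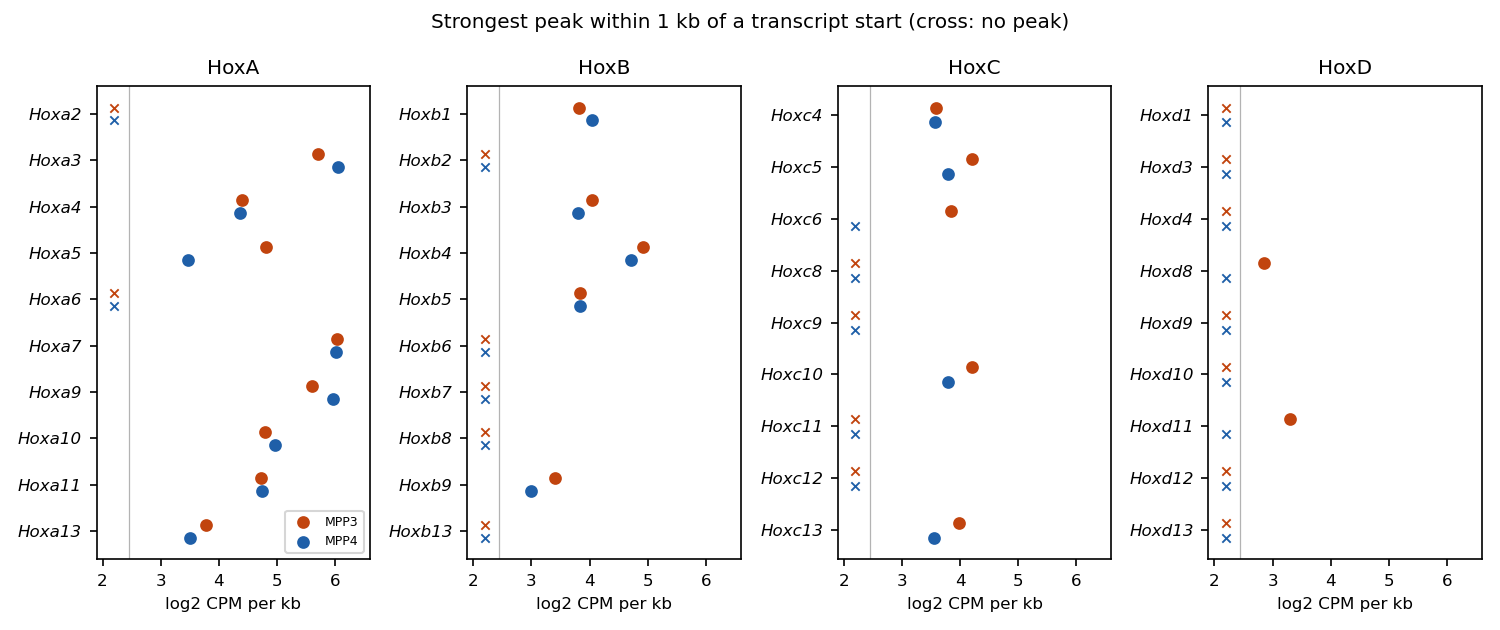
Level per kb (x axis, log2 CPM per kb) of the peak with the highest log2 CPM within 1 kb of a transcript start of each listed *Hox* gene. MPP3 is in orange, MPP4 in blue, and crosses at the left mark genes with no such peak. The peak was chosen before division by length, so *Hoxa7* in MPP4 cells is drawn at 6.01 and not at the 6.32 of its intron peak. *Hoxa3*, *Hoxa7* and *Hoxa9* reach 5.60 or more in both cell types, and 18 genes in MPP3 and 21 in MPP4 cells carry a cross.

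Most *Hox* peaks were found in both cell types. Of the MPP3 peaks 28 of 37 (75.7%, Wilson 59.9 to 86.6%) overlapped an MPP4 peak by at least 1 bp, and of the MPP4 peaks 28 of 38 (73.7%, 58.0 to 85.0%) overlapped an MPP3 peak, next to 75.7% and 76.7% of all peaks. In HoxA all 11 MPP3 peaks and 11 of 13 MPP4 peaks were shared, in HoxB 9 of 11 and 9 of 13, in HoxC 6 of 11 and 6 of 9, and in HoxD 2 of 4 and 2 of 3. Peaks found in 1 table were weak. Their median log2 CPM was 1.07 in MPP3 and 0.97 in MPP4 cells, next to 1.21 and 1.20 for such peaks of all genes. The highest in MPP4 cells were a *Hoxa10* exon peak (2.16), a peak assigned to *Hoxa3* (2.01) and a *Hoxb2* coding exon peak (1.81). The *Hoxa3* one lay in an intron of a long *Hoxa3* transcript, but inside *Hoxa4* and within 1 kb of the *Hoxa4* start. In MPP3 cells the highest were peaks of *Hoxc10* (1.62), *Hoxc13* (1.45) and *Hoxc12* (1.25).

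At the 28 shared positions the MPP4 minus MPP3 difference in log2 CPM was centred on its median over all 66324 shared peaks, which was 0.039. It was above 0 at 17 *Hox* positions and below 0 at 11, with a median of 0.14. Expressed per kb of peak, it was above 0 at 12 and below 0 at 16, with a median of -0.02, so that no direction held over the *Hox* peaks as a whole. The middle 50% of all shared peaks ran from -0.32 to 0.38. None of the 28 *Hox* positions was at least 2-fold higher in MPP4 cells, next to 5.41% of all shared peaks, and 1 was at least 2-fold lower, next to 4.12% of all shared peaks.

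That position was the *Hoxa5* start. *Hoxa5* encodes a homeodomain factor of lung and axial patterning that also acts in myeloid and erythroid progenitors. Its peak, which covers the transcript start, had a log2 CPM of 3.27 in MPP3 and 1.58 in MPP4 cells. The centred difference was -1.73, or 0.300-fold, and only 0.623% of all shared peaks lay at or below it. Per kb the centred difference was -1.33, and it was -1.72 when centred among peaks of like GC content, a setting added after the data were seen. The peak itself ran over 345 bp in MPP3 and 270 bp in MPP4 cells. Its neighbors on the *Hoxa3* to *Hoxa10* side did not share the difference, with centred values between -0.09 and 0.64.

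The next lowest values were those of *Hoxa4* (-0.72), the peak downstream of *Hoxc9* (-0.61), *Hoxa13* (-0.58) and *Hoxc10* (-0.51). For *Hoxa4* this went with the width of the peak, 411 bp in MPP3 and 264 bp in MPP4 cells, and per kb the difference was -0.03. Another peak near that start, found in MPP4 cells only and assigned to *Hoxa3* (log2 CPM 2.01), did not enter the difference. Per kb the *Hoxc9* value was -0.80, that of *Hoxa13* -0.27 and that of *Hoxc10* -0.40. The highest values were those of *Hoxb3* (0.69), the intronic *Hoxa9* start peak (0.64), *Hoxd4* (0.54), the other *Hoxa9* start peak (0.49) and *Hoxb5* (0.41). Per kb these were -0.22, 0.17, 0.00, 0.38 and 0.01, so that among them the *Hoxa9* peaks alone stayed more than 0.1 above 0. Both *Hoxa7* peaks were near the middle of all shared peaks or just above it, with -0.09 upstream and 0.40 in the intron, and *Hoxb4* had -0.43, or -0.19 per kb.

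**Figure D4:**
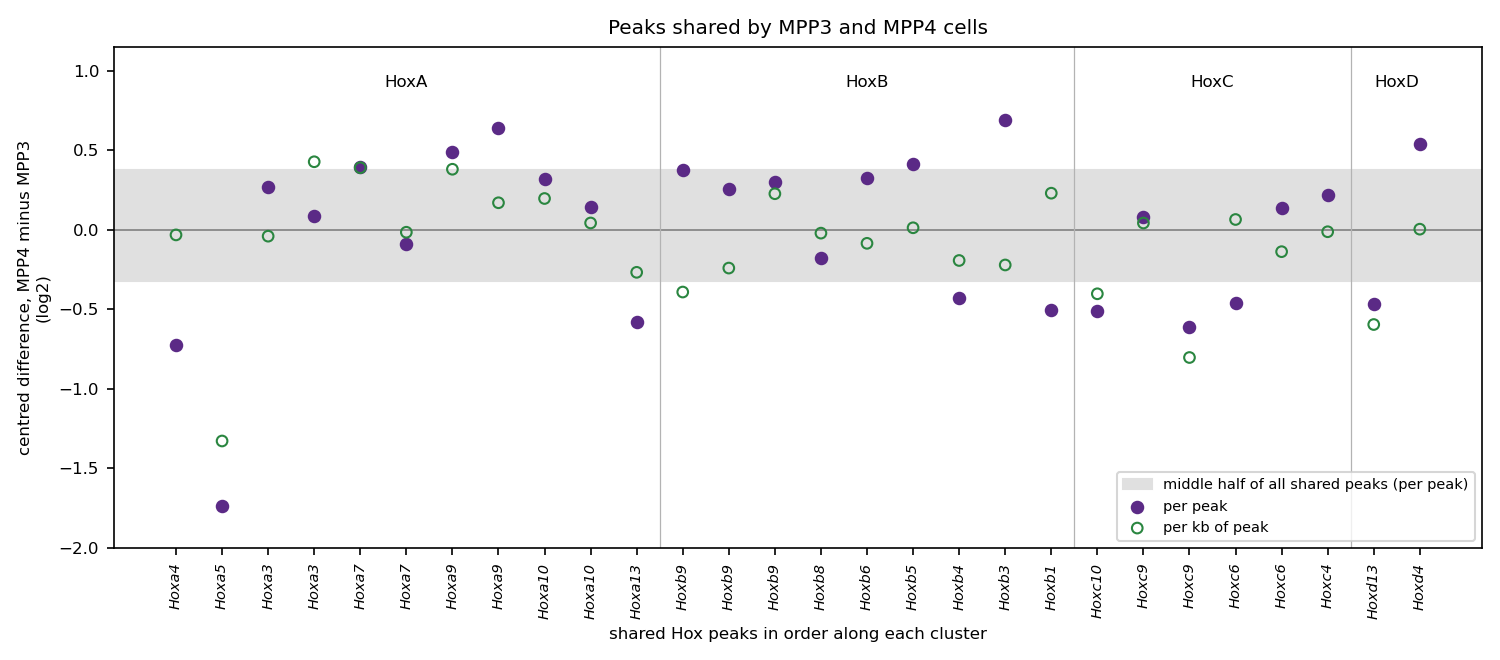
Centred MPP4 minus MPP3 difference (y axis, log2) at the 28 shared *Hox* peaks in order along each cluster, per peak (purple) and per kb of peak (green rings); the grey band is the middle 50% of all shared peaks, -0.32 to 0.38. *Hoxa5* stands apart at -1.73 per peak and -1.33 per kb, and for several other genes the 2 scales give opposite signs.

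*Hox* peaks were rich in G and C. Their median GC content was 60.8% in MPP3 and 60.3% in MPP4 cells, against 52.5% and 51.9% for all peaks, and the observed to expected ratio of CpG was 0.62 and 0.71 against 0.25 and 0.26. They were also shorter, with a median of 218 and 257 bp against 273 and 285 bp, which leaves fewer bases for a motif to occur. The ratio was 0.91 and 0.82 in HoxA, 0.58 and 0.66 in HoxB, 0.37 and 0.54 in HoxC, and 0.94 and 0.29 over the few HoxD peaks. The *Hoxd4* intron peak had no CpG at all in either table.

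Motif matches were counted as letters on either strand of the whole peak. The EBF1 core TCCCNNGGG was found in 13.5% of *Hox* peaks in MPP3 and 7.89% in MPP4 cells (5 and 3 peaks), against 7.46% and 6.49% of all peaks. The MPP3 peaks with a match were those of *Hoxa7* upstream, *Hoxa3*, *Hoxa10*, *Hoxb1* and *Hoxb4*, and in MPP4 cells those of *Hoxa7* upstream, *Hoxa10* and *Hoxb4*. The MPP4 peaks of *Hoxa3* and *Hoxb1* were narrower and ended short of the letters. The CTCF core was found in 18.9% and 13.2% of *Hox* peaks (7 and 5), against 16.1% and 16.5% of all peaks. In MPP3 cells these were peaks of *Hoxa3*, *Hoxa7*, *Hoxa13*, *Hoxb9*, *Hoxc10*, *Hoxc12* and *Hoxd8*, and the core lay 12 bp from the peak centre in both the *Hoxa7* intron and the *Hoxb9* peak.

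The E-box, MEIS and RUNX motifs were found in a smaller share of *Hox* peaks than of all peaks in both tables. The E-boxes CAGCTG and CAGGTG were in 18.9% and 13.2% of *Hox* peaks against 38.7% and 40.0% of all peaks, the MEIS motif TGACAG in 8.11% and 10.5% against 23.3% and 24.4%, and the RUNX motif TGTGGTT in 2.70% and 5.26% against 12.4% and 13.9%. The HOX-PBX composite TGATNNAT was in 5.41% and 13.2% against 6.51% and 7.30%, and the PU.1 motif GAGGAAGT in 8.11% and 7.89% against 9.56% and 10.9%. These are shares of 37 and 38 peaks, and the differences in length and GC content given above move with them, whose part was not tested. A CTCF core of the form CCAGNNGGC with CT or GT at its free positions also contains an E-box, and the EBF1 core can match both strands at nearly the same place.

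Most of the listed genes that act with or on *Hox* genes had an accessible start in both cell types. Over all autosomal protein-coding genes, 67.5% in MPP3 and 67.3% in MPP4 cells had a peak within 1 kb of a start. All 9 cofactor genes of the PBX, MEIS and PKNOX families, which bind DNA together with HOX proteins, had a peak within 1 kb of a start in both tables. Among the strongest were *Pknox1* (log2 CPM per kb 7.29 in MPP3 and 6.87 in MPP4 cells), *Pbx4* (7.42 and 7.31) and *Meis1* (6.54 and 6.76), and among the weakest were *Meis2* (3.66 and 4.16), *Meis3* (4.13 and 4.07) and *Pknox2* (4.42 and 3.96). All 6 genes of the activating group had a start peak, with *Kmt2a* at 6.84 and 6.02 per kb and *Men1*, its partner, at 6.70 and 6.49. All 8 Polycomb genes had one too, with *Ezh2*, the H3K27 methyltransferase, at 6.77 and 6.62. Of the 2 autosomal *Cdx* genes, which act upstream of *Hox* genes in the embryo, only *Cdx2* had a start peak, at 3.40 and 3.50. These values lay at the 13.2th and 23.8th percentile of all peaks. The start peak of *Meis1* thus stood above every *Hox* peak of both tables on the scale per kb, in which the highest *Hox* value was 6.32.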

How the data were processed

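Per the study's methods, the authors trimmed reads with Cutadapt 2.10, aligned them to mm10 with snakePipes, removed duplicates, kept mapping quality of at least 5, dropped fragments over 150 bp and regions that attract reads with deepTools 3.3.2, called peaks with MACS2 2.2.7.1 (q of 0.01), merged them per cell type and counted reads with deepTools. The deposited tables came from edgeR 3.32.0 in R 4.0.3, and their log2 CPM column is the authors' mean over the 4 libraries of a cell type. The other 4 value columns of each table hold the authors' comparison of knockout with control (log2 fold change, F, p-value and FDR) and were not used. Depth per library is not in these columns, so no counting error could be given for a level. The tables list peaks of the 19 autosomes.

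Peak positions were matched to GENCODE vM21 genes by the closest start, centre or end of a transcript. Levels per kb were log2 CPM minus log2 of the peak length in kb. Sequences and motifs came from the GRCm38 genome. Scripts ran in Python 3.11.15 with pandas 2.3.3 and were tested on simulated data. Values in full were given for start peaks, the 3 highest peaks per kb of each cluster, the 5 largest differences each way and the 3 highest peaks found in 1 table. The genes and lists were chosen with earlier results of these data known. Some items are not reported here.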

Additional observations from a re-analysis of the deposited data

How the results depend on the processing

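No paired analysis was possible because the tables hold 1 pooled level per cell type and no value per replicate, and for the same reason no library could be left out. Of 110 alternative values, 84 stayed within the limits set and 26 moved. The values that stayed within the limits include a change of sign. Per kb of peak, the median MPP4 minus MPP3 difference at the shared *Hox* peaks went from 0.14 to -0.02, with 12 positions above 0 and 16 below. With the listed *Hox* genes alone competing for peaks, counts rose to 18 (HoxA) and 8 (HoxD) in MPP3 cells and to 59 in all, 21 (HoxA) and 10 (HoxD) in MPP4 cells, and the summed level to 318 and 368 CPM. With shared peaks only it was 197 and 209 CPM. With a log2 CPM of at least 2, 14 MPP3 peaks remained in all (HoxB 3, HoxC 1, HoxD 0) and 16 MPP4 peaks (HoxB 4, HoxC 0, HoxD 1). HoxD in MPP4 cells had 7 peaks with protein-coding genes only and also 7 when every peak between the outermost genes was counted, a setting chosen after seeing the data. The median level per peak, not divided by length, was 1.62 in MPP3 and 1.74 in MPP4 cells. Requiring overlap with a start left 7 and 8 genes. In the central 200 bp the EBF1 core was in 5.41% of MPP3 and 2.63% of MPP4 *Hox* peaks, next to 4.54% and 3.66% of all peaks, and the HOX-PBX composite in 5.26% of MPP4 *Hox* peaks, next to 4.45% of all peaks. The depth of each library is unknown here, so the error of a weak peak cannot be given.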
